A study of Rattus norvegicus with 30 samples.

Results

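Prenatal alcohol exposure (PAE) was compared with pair-feeding (PF) in the prefrontal cortex (PFC) of rats, in DNA methylation profiles made by methylated DNA immunoprecipitation and sequencing (meDIP-seq). The members were the 20 libraries that the labels assign to these treatments, 10 PAE and 10 PF, of 30 in the series, and the 10 control (CON) libraries serve only as a reference. PAE dams, Sprague-Dawley rats like all others, had free access to a liquid diet with 36% of its calories from ethanol (6.37% v/v). PF dams drank a diet without ethanol, its energy made up with maltose-dextrin, and each was rationed to the intake of a PAE dam, while CON dams had pellets and no limit on intake. All diets ran from gestation day 1 to 21, and the offspring were sampled on postnatal day 22. Every dam gave 1 animal labelled female and 1 labelled male, so that 5 dams stood behind each group. The libraries were made from whole dissected tissue, so a change in the mixture of cells and a change within cells cannot be told apart.

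Methylation of cytosine, in most adult mammalian tissues found mainly at CG dinucleotides, is copied through cell division there, and at promoters it commonly accompanies a silent gene. An antibody against 5-methylcytosine pulls down fragments that carry it, so a peak in meDIP-seq marks a stretch rich in methylated cytosine. Its height rises with both methylation and CG density. Alcohol-consuming dams eat less than dams with free access to food, and pair-feeding matches that lower intake without ethanol. The comparison of PAE with PF therefore asks which differences go with ethanol beyond reduced intake, although PF dams also met a timed and limited ration that PAE dams did not.

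Behind each PAE library lay 13254266 to 15537001 fragments kept by the authors' filters, and behind each PF library 12571392 to 16555049. Overlapping autosomal peaks of the 20 libraries (by 1 bp or more) were joined into 532839 regions, and 280951 of these had a peak in at least 3 libraries and were tested. The value of a region in an animal was the highest pileup of its peaks (the number of fragments over the summit) per 1000000 filtered fragments, here called the normalized height. Animals without a peak, or with a lower one, were placed at a floor of 0.438, the highest of the 20 libraries' own lowest called heights. The coverage of animals without a called peak is not in the files, so a difference that involves them depends on this floor. A log2 difference below is PAE minus PF, with negative values lower in PAE.

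Peaks on the sex chromosomes went against the labelled sex in 11 of the 20 libraries, 4 PAE and 7 PF. A high share of X peaks (2.65 to 3.14%) with few Y peaks (4 to 11) was found in PAE replicate 1 and PF replicates 5, 6, 7 and 8, and 3 of these 5 carried a male label. The remaining 15 libraries had 0.774 to 1.15% of their peaks on X and 38 to 73 peaks on Y. Below, female and male mean the labelled sex, and some counts are repeated without these libraries or with the share of X peaks. Animals of the same dam were also no more alike than others of their group, by a measure that may miss a shared dam, as given at the end. Whether the labels, group included, belong to these libraries was not tested, so every comparison of PAE with PF rests on them. The labels also place the libraries on sequencing lanes that did not hold the groups evenly: lane 4 held 2 PAE libraries and lane 7 held 2 PF libraries, while lanes 5, 6 and 8 held 2, 3 and 3 PAE and 4, 3 and 1 PF libraries. Libraries on lanes 4 and 7 could not inform the difference between PAE and PF where lane was in the model, except through the labelled sex term. Labelled sex and lane were terms of the limma model of the region heights unless stated otherwise, and neither entered Fisher's exact test or the permutation tests.

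The gene lists hold genes with a region in the study's tables. In these, the fitted height was lower in PAE than in PF at Kcnh5, Grik1, Pde9a, Cdh13, Lrrc4c, Ctnna2, Ephb1, Arnt2 and Zfp521. It was higher in PAE at Dgki, Ptprk and Sox10, each of the 12 at an unadjusted p under 0.05. At several of them, Sox10 and Ephb1 among these, most animals of both groups sat at the floor. None of them passed correction over all regions. The study had chosen 10 of these 12 regions, all but those of Ctnna2 and Sox10, by contrasts that included PAE against PF in the same animals, so they are no independent evidence. In the model fitted with limma, 0 of 280951 regions differed between PAE and PF at a false discovery rate (FDR) of 0.05, and the smallest adjusted p was 0.953. At an unadjusted p under 0.05, 12951 regions (4.61%) differed, 7919 (2.82%) lower and 5032 (1.79%) higher in PAE, and Fisher's exact test on the presence of a peak gave 0 regions at the FDR and 2625 (0.934%) unadjusted. With 10 animals per group, the smallest possible p of Fisher's test is too large for a few regions to pass the FDR. Its 0 among 280951 regions was therefore nearly fixed beforehand.

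That split between lower and higher regions depended on how the libraries were scaled and on which of them were fitted. It was 6723 to 6192 with median ratio scaling and 6007 to 6565 with quantile normalization, which both bring the libraries to a common level and so take out a difference shared by most regions. Without PF replicate 4, which had the most peaks of the PF libraries, it was 4308 to 6541, and without the library with the most peaks in each group 4869 to 7518. No other fit that left out 1 library had more higher than lower regions. The count at the FDR was 0 without each of the 20 libraries in turn. It was also 0 without the 5 libraries with a high share of peaks on chromosome X (11431 regions unadjusted) and with that share in place of labelled sex (14188 unadjusted). The split was wider in these fits, 7775 lower to 3656 higher and 9449 to 4739. With only the 9 libraries whose sex chromosomes matched their label, 6 PAE and 3 PF, and no lane term, 1 region was called, on chromosome 9 from 8834545 to 8835077, which lies within a stretch described further on. That fit had 10529 lower and 1749 higher regions unadjusted, also a wider split. Over all regions with any fitted difference, whatever its p, it leaned less to lower in PAE than the fit of all 20 libraries. The share lower was 51.2% against 55.8%, and the median log2 difference was 0 against −0.026.

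Removing the lane effect before the fit, which leaves its uncertainty out of the test, called 566 regions, 300 lower and 266 higher in PAE. Other filters called single regions. With each library at its own floor, and with only the 197040 regions that had a peak in at least 5 libraries, the region on chromosome 1 starting at 11975552 was called, and among the 14428 regions with a peak in all 20 libraries the region on chromosome 15 starting at 59585515 (lower in PAE) and that on chromosome 6 starting at 31049747 (higher in PAE) were called. Lane itself was associated with 28 regions (0.00997%) at the FDR and with 18786 (6.69%) at an unadjusted p under 0.05, more than the groups were. The F test of lane takes the 5 lanes together, while that of group is of a single difference, so these counts come from unlike tests. Of the 28 regions, 27 had a peak in only 3 to 5 libraries.

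The lowest unadjusted p among regions lower in PAE belonged to a 503-bp region on chromosome 19 (53486098 to 53486600). Its normalized height was 0.438 in all 10 PAE animals, which had no peak there, and ran from 0.438 to 1.93 with a median of 1.41 in PF animals, of which 8 had a peak. The groups overlapped only at the floor, where 2 PF animals sat with all PAE animals. PAE minus PF was −1.54 in log2 (standard error 0.305, limma p = 4.24e-05, adjusted p = 0.953), and 5 of 10 CON animals had a peak there. Similar patterns were seen on chromosome 5 (158130708 to 158131275), with a peak in 2 PAE and 9 PF animals and a log2 difference of −1.33, and on chromosome 20 (48902507 to 48902919), with 4 and 9 animals and −1.23. On chromosome 16, a 1776-bp region (79679469 to 79681244) had a peak in 5 PAE and 10 PF animals and a log2 difference of −1.06. No gene was assigned to these positions here, because an annotation of Rn6, the genome build of the files, was not used.

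Fech, which encodes ferrochelatase, the enzyme that inserts iron into protoporphyrin to form heme, held the last of the 5 regions lower in PAE with the smallest p. This 486-bp region on chromosome 18 (59942631 to 59943116) covers part of an exon and the 3′ untranslated region. Heights in PAE animals ran from 0.438 to 0.981 (median 0.438) and in PF animals from 0.778 to 1.39 (median 0.954). All 10 PF animals had a peak, against 2 PAE and 5 CON animals, and 9 PAE animals lay below the lowest PF animal. The log2 difference was −1.06 (standard error 0.231, limma p = 0.000137). The study listed this region as PAE-specific from the same animals, so its direction is no independent evidence.

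Among regions higher in PAE, the smallest p belonged to a short region on chromosome 1 (11975552 to 11975870). Heights ran from 0.438 to 7.21 (median 4.98) in PAE animals and from 0.438 to 10.3 (median 0.438) in PF animals. A peak was present in 7 PAE, 3 PF and 3 CON animals, and 2 PF animals lay above every PAE animal, so the groups overlapped over their whole range. Its log2 difference was 2.88 (standard error 0.507, limma p = 9.53e-06), and lane was associated with its height as well (p = 0.000247). A region on chromosome 9 (12328206 to 12328630) had heights of 0.438 to 3.30 (median 2.11) in PAE animals and sat at the floor in all 10 PF animals. Peaks there were present in 8 PAE, 0 PF and 3 CON animals, with a log2 difference of 1.91 (standard error 0.365, p = 2.65e-05). On chromosome 2 (143224793 to 143225198) all 10 PAE animals had a peak, with heights of 0.960 to 1.65 (median 1.32), against 4 PF animals and heights of 0.438 to 1.28 (median 0.438). There 6 PAE animals lay above the highest PF animal, and the log2 difference was 1.26 (p = 7.44e-05). The regions on chromosome 11 starting at 69173310 and on chromosome 5 starting at 62795014 had a peak in 9 and 7 PAE against 3 and 2 PF animals, with log2 differences of 1.32 and 1.27. Lane was associated with both heights (limma F test p = 0.000809 and 0.0182).

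Regions with a peak in every library need no floor, and their differences were smaller. The lowest p lower in PAE was on chromosome 15 (59585515 to 59586094), with heights of 0.772 to 2.31 (median 1.12) in PAE and 1.31 to 3.13 (median 2.01) in PF animals. Of the PAE animals 7 lay below the lowest PF animal and 3 lay above the PF median. Here the difference was −0.95 (standard error 0.209, limma p = 0.000149, adjusted p = 0.953 over all regions), and lane was associated with the height (limma F test p = 0.0134). At a 560-bp region on chromosome 1 (22142911 to 22143470), heights were 0.708 to 1.29 (median 0.902) in PAE and 1.15 to 1.83 (median 1.45) in PF animals. The groups nearly separated there, with 9 PAE animals below the lowest PF animal, and the log2 difference was −0.72 (standard error 0.184). Another region of the same chromosome, starting at 22319244, was 1140 bp long and had a log2 difference of −0.67, and a 1581-bp region on chromosome 15 (82080403 to 82081983) had −0.87.

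Plxdc2, a membrane protein with a plexin-like domain, carried an intronic region with a peak in all 20 libraries (chromosome 17, 83533961 to 83534570). Heights were 0.538 to 1.65 (median 1.16) in PAE, 1.10 to 2.39 (median 1.60) in PF and at a median of 1.16 in CON animals. The groups overlapped, with 4 PAE animals below the lowest PF animal and 3 PF animals above the highest PAE animal. Plxdc2 thus had a log2 difference of −0.82 (standard error 0.216, limma p = 0.000916), at a region the study listed as PAE-specific.

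In the other direction, the region of chromosome 6 from 31049747 to 31050547 was among the tallest named, with heights of 9.76 to 23.8 (median 17.8) in PAE and 5.13 to 34.9 (median 11.1) in PF animals. The PF animals spread more widely, with 4 below every PAE animal and 2 above. The log2 difference was 0.97 (standard error 0.217), and lane was associated with this height at p = 2.18e-05. A region on chromosome 1 (11930123 to 11930866) had heights of 16.6 to 32.6 (median 27.7) in PAE and 9.39 to 47.7 (median 21.1) in PF animals. Its log2 difference of 0.70 became −0.39 with the 9 libraries whose sex chromosomes matched their label, and that of 0.54 at the 2223-bp region on chromosome 2 starting at 161033348 became −0.10. Lane was associated with both of these heights as well (limma F test p = 0.00223 and 0.000391). The remaining regions, on chromosome 9 starting at 101709010 and on chromosome 1 starting at 175769812, had log2 differences of 0.68 and 0.60, and the groups overlapped at both. For lane, the limma F test p was 0.0617 and 0.0407.

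Peaks present in nearly all animals of a single group were rare. Of the 280951 tested regions, a peak in at least 9 PAE and at most 1 PF animals was found at 8, and the converse at 14. The clearest on the PAE side was on chromosome 9 (115861705 to 115862342), with a peak in 9 PAE, 0 PF and 5 CON animals, heights up to 1.29 in PAE animals and a log2 difference of 0.97 (standard error 0.208, limma p = 0.000112). Regions on chromosomes 3 (154596453), 1 (183765641), 8 (84841316) and 15 (36891743) had a peak in 9 PAE and 1 PF animals each, with log2 differences of 1.22, 0.76, 0.71 and 0.81. On the PF side, a region on chromosome 3 (105738586 to 105739106) had a peak in 1 PAE and all 10 PF animals, and 9 PAE animals lay below the lowest PF animal, at 0.459. A region on chromosome 10 (4877400 to 4878160) had one in 0 PAE, 9 PF and 5 CON animals. Their log2 differences were −0.78 and −0.72. At the regions on chromosomes 12 (26869420), 5 (171230732) and 19 (53229573), 1 PAE and 9 PF animals had a peak, with log2 differences of −1.13 (at a region the study chose as PAE-specific from these animals), −0.81 and −0.85, the last of which was 0.04 where a peak had to cover 50% of the region. At these 10 regions a peak was present in 4 to 8 CON animals, and a count between those of PAE and PF follows from how the regions were chosen. More broadly, 7977 of the 280951 tested regions had no peak in any PAE animal and 5829 had none in any PF animal. At least 6 more PF than PAE libraries had a peak at 1005 regions, and at least 6 more PAE than PF libraries at 468. PF libraries also had more calls on average, at 44.6% of the tested regions against 42.0% in PAE libraries (permutation p = 0.346). More PF than PAE libraries had a peak at 125803 regions, and more PAE than PF libraries at 95884. These call counts were not repeated without PF replicate 4, so their excess in PF is not read as a trait of the regions.

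The gene lists held 93 genes of 10 functional groups in which the study placed a region, and 62 of them had a region tested here, 66 regions in all. Of these, 12 (9 lower and 3 higher in PAE) had an unadjusted p under 0.05, against 4.61% of all tested regions. The study chose 8 of the 12 as PAE-specific and 2 as PF-specific by contrasts that included PAE against PF in these animals, so a share above that of all regions follows from the choice and is no independent evidence. None of the 66 passed the FDR, with a smallest adjusted p of 0.953. The counts of lower and higher regions per list stand beside 55.8% lower in PAE among all tested regions with any fitted difference, so a list with slightly more lower than higher regions does not stand apart from the rest.

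**Figure D1:**
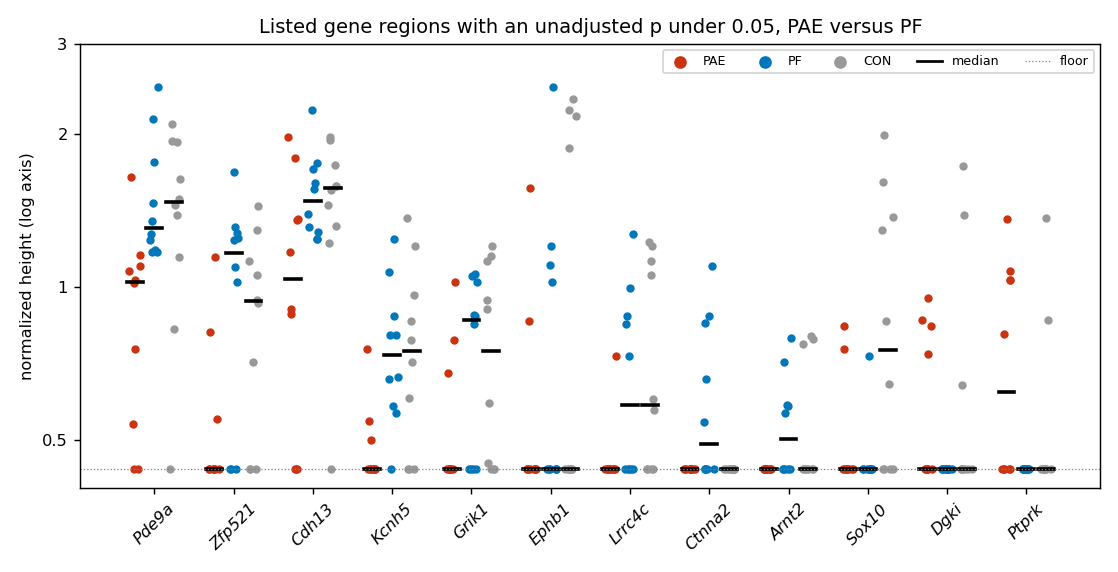
Normalized height (log axis, per 1000000 filtered fragments) of the 12 listed regions with an unadjusted p under 0.05 between PAE and PF, for 10 PAE, 10 PF and 10 CON animals, with a point per animal, a bar at each median and a dotted line at the floor of 0.438. At Pde9a 9 PAE animals lie below the lowest PF animal, and at Ctnna2 no PAE animal is above the floor.

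Second messenger enzymes showed the largest of these differences at Pde9a, a phosphodiesterase that breaks down cyclic GMP. Its region on chromosome 20 (10214038 to 10214572) spans exon, intron and 3′ untranslated sequence. Heights were 0.438 to 1.65 (median 1.02) in PAE, 1.17 to 2.47 (median 1.31) in PF and at a median of 1.47 in CON animals. All but 1 PAE animal lay below the lowest PF animal. The log2 difference was −0.91 (standard error 0.267, limma p = 0.00244). Dgki encodes a kinase that converts diacylglycerol, a lipid messenger, to phosphatidic acid, and its intronic region (chromosome 4, 64805127 to 64805528) had a peak in 4 PAE, 0 PF and 3 CON animals. The 4 PAE animals reached up to 0.953, and the other PAE and all PF animals sat at the floor, with a log2 difference of 0.46 (standard error 0.196, p = 0.0286). Plcg2, a phospholipase that makes diacylglycerol and inositol trisphosphate, had heights of 0.438 to 1.96 (median 1.20) in PAE and 0.438 to 1.46 (median 0.953) in PF animals at its intronic region, with a log2 difference of 0.71 (standard error 0.346, p = 0.0523). The 8 regions of this group were divided into 4 lower and 4 higher in PAE (5 and 3 without PF replicate 4 or the lane term), with a median log2 difference of −0.05. This median was −0.11 without PF replicate 4, −0.016 without the lane term and −0.0066 after quantile normalization.

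Potassium channel genes had 3 of 5 regions lower in PAE. The intronic region of Kcnh5, a voltage-gated channel of the ether-à-go-go family (chromosome 6, 97981532 to 97982019), had heights of 0.438 to 0.756 (median 0.438) in PAE and 0.438 to 1.24 (median 0.734) in PF animals. A peak was present in 3 PAE, 9 PF and 7 CON animals, and 5 PF animals lay above every PAE animal. At Kcnh5 the log2 difference was −0.67 (standard error 0.240, limma p = 0.0106). At Kcnc2, a channel of fast-spiking neurons, a region over exon 1 had a peak in 10 PAE and 9 PF animals and a log2 difference of −0.20, and at Kcnab2, an auxiliary β subunit, an intronic region had one in 6 and 4 animals and 0.20. Those differences were smaller than their standard errors of 0.229 and 0.307, and each turned, to 0.02 at Kcnc2 with the 9 libraries whose sex chromosomes matched their label and to −0.09 at Kcnab2 without the 5 with a high chromosome X share.

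Voltage-gated calcium channels showed no region at an unadjusted p under 0.05, with 2 of 5 lower and 3 higher in PAE (1 and 4 after quantile normalization). Cacna1g, a low-voltage-activated channel, had a peak over an exon in 3 PAE, 0 PF and 6 CON animals (log2 difference 0.16, standard error 0.166). Cacna1c, the pore subunit of an L-type channel, had an intronic peak in 4 PAE, 7 PF and 9 CON animals with a log2 difference of −0.21 (standard error 0.282), which became 0.13 where a peak had to cover 50% of the region. At Cacna2d2, an auxiliary subunit, the log2 difference of −0.04 became 0.09 without the lane term and 0.03 without PF replicate 4, so it had no stable direction.

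For glutamate receptors, the kainate receptor subunit gene Grik1 had an intronic region (chromosome 11, 28193046 to 28193510) with heights of 0.438 to 1.02 (median 0.438) in PAE and 0.438 to 1.06 (median 0.860) in PF animals. Peaks were present in 3 PAE, 6 PF and 7 CON animals, and the ranges coincided almost fully. Grik1 had a log2 difference of −0.66 (standard error 0.265, limma p = 0.0210). Grip1, a scaffold protein that binds AMPA receptors, and Grm8, a presynaptic metabotropic receptor, had log2 differences of 0.16 (standard error 0.130) and −0.11 (standard error 0.245), and they turned, to −0.0042 at Grip1 when all 30 libraries were fitted and to 0.05 at Grm8 without the lane term. In all, 3 of the 4 regions of this group were lower in PAE, and 2 of 4 after quantile normalization. Without the lane term the order was the opposite, with 1 lower and 3 higher.

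Cell adhesion genes made up the largest group by regions, with 8 of 14 (57.1%) lower in PAE, 7 of 14 without PF replicate 4 or without the lane term, and 3 at an unadjusted p under 0.05. Cdh13 encodes T-cadherin, which lacks the transmembrane and cytoplasmic parts of other cadherins. Its intronic region, annotated with a CpG island (chromosome 19, 51285986 to 51286612) had heights of 0.438 to 1.97 (median 1.04) in PAE, 1.24 to 2.23 (median 1.47) in PF and at a median of 1.56 in CON animals. There 6 PAE animals lay below the lowest PF animal, and PF replicate 4 alone was above every PAE animal. The log2 difference was −0.69 (standard error 0.227, limma p = 0.00595) and −0.46 without PAE replicate 5, and lane was associated with the same height (p = 0.000917). At Lrrc4c, a postsynaptic ligand of netrin-G1, a peak was present in 1 PAE, 5 PF and 6 CON animals, with a log2 difference of −0.54 (standard error 0.227, p = 0.0261), which was −0.32 without PF replicate 4. At Ctnna2, the neuronal α-catenin that ties cadherins to actin, a peak was present in 5 PF animals and in 0 PAE and 0 CON animals, with a log2 difference of −0.49 (standard error 0.212, p = 0.0314).

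In the group of axon guidance and growth factor signalling, 9 of 12 regions were lower in PAE, and 8 of 12 after quantile normalization, while without the lane term 5 were lower and 7 higher. The region of Ephb1, a receptor tyrosine kinase for ephrin-B ligands (chromosome 8, 110798278 to 110799227), had a peak in 2 PAE, 4 PF and 4 CON animals and a log2 difference of −0.62 (standard error 0.278, limma p = 0.0361). Most animals of both groups sat at the floor, and the highest PF animal reached 2.47 against 1.57 in PAE. Lane was associated with the height at Ephb1 as well (limma F test p = 0.0448). Ptprk, a receptor-type tyrosine phosphatase of cell contacts, had an intronic region (chromosome 1, 17991881 to 17992220) with heights of 0.438 to 1.36 (median 0.623) in PAE animals and at the floor in all 10 PF animals. A peak was present in 5 PAE, 0 PF and 2 CON animals, with a log2 difference of 0.75 (standard error 0.267, p = 0.00960). Srgap1, which couples Slit and Robo signals to the cytoskeleton, had a log2 difference of −0.46 (standard error 0.232, p = 0.0590) over heights of 0.438 to 1.57 (median 0.845) in PAE and 0.785 to 1.83 (median 1.24) in PF animals.

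Of the genes for nuclear receptors, hormones and the clock, 2 of 5 regions were lower in PAE, and 3 of 5 without the lane term. Arnt2, a dimerization partner of transcription factors in neurons, had an intronic region with a peak in 1 PAE, 5 PF and 4 CON animals and a log2 difference of −0.28 (standard error 0.136, limma p = 0.0492), which was −0.14 without PF replicate 4. At Hsd17b1, which forms estradiol from estrone, the log2 difference was −0.43 (standard error 0.283), and −0.25 without PF replicate 4. At the clock gene Per3 it was 0.37 (standard error 0.247), and −0.12 without the lane term, at a region whose height was associated with lane (p = 0.00540). The single dopamine region, near the start site of Drd4, a D2-like receptor of the PFC, had a peak in 1 PAE, 5 PF and 8 CON animals. Its heights were 0.438 to 1.36 (median 0.438) in PAE and 0.438 to 0.878 (median 0.475) in PF animals. Of the PAE and PF animals the tallest peak was in a PAE animal, and the log2 difference was −0.21 (standard error 0.263).

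Transcription and chromatin genes had 5 of 9 regions lower in PAE. Zfp521, a zinc finger factor of neural progenitors, had an intronic region (chromosome 18, 5068496 to 5068984) with heights of 0.438 to 1.14 (median 0.438) in PAE and 0.438 to 1.68 (median 1.17) in PF animals. Peaks were present in 3 PAE, 7 PF and 7 CON animals, and 5 PF animals lay above every PAE animal. For Zfp521 the log2 difference was −0.79 (standard error 0.325, limma p = 0.0236), and −1.22 without PF replicate 4. Sox10, a factor of the oligodendrocyte lineage, had a downstream region with a peak in 2 PAE, 1 PF and 6 CON animals (log2 difference 0.28, standard error 0.130, p = 0.0453, and 0.18 without PAE replicate 9). All other PAE and PF animals sat at the floor at Sox10, and lane was associated with its height (limma F test p = 0.0141). Camta1, a calmodulin-binding transcription activator, had an intronic region with a peak in 3 PAE, 5 PF and 7 CON animals and a log2 difference of −0.58 (standard error 0.357), which was −0.37 without PAE replicate 1. The Hippo pathway, which limits organ growth through a kinase cascade, had 1 of 3 regions lower in PAE. A peak in the kinase gene Stk3 was present in 0 PAE, 3 PF and 2 CON animals (log2 difference −0.25, standard error 0.141). Wwc2, a scaffold of that cascade, had 0.16 (standard error 0.173), and Wwtr1, the coactivator it restrains, had 0.06 (standard error 0.193), which was −0.06 without PAE replicate 9 and −0.0032 with the chromosome X share in place of labelled sex.

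Taking every region of the study's tables, 1002 of 1462 matched a region tested here. Of the 260 tested regions of the PAE-specific tables, 209 were lower and 50 higher in PAE, and 100 had an unadjusted p under 0.05. Of 97 PF-specific regions, 31 were lower and 66 higher in PAE, with 29 at that threshold. Both kinds were chosen by the study on contrasts that included this pair of groups in these animals, so their direction is fixed in part by the choice. The 646 shared regions were chosen on contrasts with CON animals. Of these, 349 were lower and 293 higher in PAE, a median log2 difference of −0.02, and 19 (2.94%) had an unadjusted p under 0.05, against 4.61% of all tested regions. Regions chosen because both PAE and PF differ from CON tend to be alike in PAE and PF. A share below that of all regions thus follows in part from the choice.

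For 12 genes in which the study listed regions at least 100 kb apart, the other tested regions between them were read as a picture of the gene body, beside the 55.8% lower in PAE over all tested regions. In Ephb1 40 of 54 such regions were lower in PAE, with a median log2 difference of −0.11 against −0.03 over all tested regions, and 36 were lower after quantile normalization. Without PF replicate 4 these medians were −0.095 and −0.0031, and 35 regions of Ephb1 were lower. The animals' mean log2 heights over these regions ran from −0.95 to −0.44 (median −0.86) in PAE and from −0.79 to −0.43 (median −0.73) in PF animals, and overlapped. The body of Cdh13 had 64 regions lower (59.3%) and 44 higher over 578 kb, a share near that of all tested regions. Its smallest p was at a region starting at 51681953 with a peak in 4 PAE and 10 PF animals and a log2 difference of −0.73 (standard error 0.254, limma p = 0.00855). There 7 PAE animals lay below the lowest PF animal, yet the tallest peak of both groups was PAE.

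The body of Pcdh9, a protocadherin of neuronal contacts, had 43 regions lower (59.7%) and 29 higher, also near that share, and the smallest p belonged to a peak in 4 PAE and 0 PF animals starting at 77460903 (log2 difference 0.38). In Ptprk, 17 regions were lower (56.7%) and 13 higher, against 13 and 17 without PF replicate 4. A region starting at 17872406 had heights of 0.438 to 1.02 (median 0.438) in PAE and 0.438 to 1.67 (median 0.862) in PF animals. Its log2 difference of −0.94 (standard error 0.292, limma p = 0.00377) was opposite to the 0.75 at the listed region of the same gene, so the gene body did not shift in a single direction. Ephb1 likewise held a region starting at 110576556 with a log2 difference of 0.54 against the −0.62 of its listed region, but 0.24 without PF replicate 4. Magi1, a synaptic scaffold, had 30 of 46 regions lower, and 25 after quantile normalization. Mad1l1, of the mitotic checkpoint, had 13 of 19 lower, and at a region starting at 16618122 all 10 PF and 6 PAE animals had a peak (log2 difference −0.58, standard error 0.231). Gpc5, a glypican, had 18 of 28 lower, with its smallest p at a region starting at 100638978 (−0.23), which was −0.06 without PF replicate 4 and 0.07 with the 9 libraries whose sex chromosomes matched their label. Clstn2, a calsyntenin of the postsynaptic membrane, was the exception with 1 of 7 lower, and 3 of 7 without PF replicate 4.

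The bodies of 4 further genes had no stable direction. Camta1 had 27 regions lower and 26 higher, and the teneurin gene Tenm2 30 and 21, Tmem178b 13 and 9 and the cation channel gene Trpm3 24 and 17. After quantile normalization Camta1, Tenm2 and Tmem178b had more regions higher than lower (30, 27 and 12), and Trpm3 had 21 higher and 20 lower without PF replicate 4, so none is given. The region of smallest p in Tmem178b, at 67704957, had a peak in 8 PAE and 8 PF animals and a log2 difference of −0.62, or −0.39 without PF replicate 4. In Camta1 the corresponding region had −0.48, or −0.30 without PAE replicate 5, and in Tenm2 0.27. In Trpm3 it had −0.34, which was −0.18 without PF replicate 4 and became 0.06 with the 9 libraries whose sex chromosomes matched their label.

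Promoter windows were read for their CG dinucleotides in the 4 genes whose tested region lies at exon 1 or close to the start site. Methylated cytosine outside CG was not looked at. The windows are from RefSeq on GRCr8, another build than Rn6, so whether the tested region covers them was not determined. Each runs from 250 bases before to 50 after the start, in lower case with each CG in capitals, a motif that reads the same on both strands. Drd4 (chr1:205825687-205825986, plus strand) holds 10 CG, Kcnab2 (chr5:168270711-168271010, minus strand) 28, Kcnc2 (chr7:49587364-49587663, plus strand, the first of 2 entries) 5 and Lef1 (chr2:222340463-222340762, plus strand), a mediator of Wnt signals, 23. Of 33469 promoters 94.5% hold a CG, with a median of 7.
Drd4: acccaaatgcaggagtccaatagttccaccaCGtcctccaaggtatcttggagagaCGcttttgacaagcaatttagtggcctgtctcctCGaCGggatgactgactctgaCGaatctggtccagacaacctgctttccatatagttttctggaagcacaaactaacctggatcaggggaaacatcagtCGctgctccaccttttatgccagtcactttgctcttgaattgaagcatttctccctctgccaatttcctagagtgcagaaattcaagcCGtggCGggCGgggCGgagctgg
Kcnab2: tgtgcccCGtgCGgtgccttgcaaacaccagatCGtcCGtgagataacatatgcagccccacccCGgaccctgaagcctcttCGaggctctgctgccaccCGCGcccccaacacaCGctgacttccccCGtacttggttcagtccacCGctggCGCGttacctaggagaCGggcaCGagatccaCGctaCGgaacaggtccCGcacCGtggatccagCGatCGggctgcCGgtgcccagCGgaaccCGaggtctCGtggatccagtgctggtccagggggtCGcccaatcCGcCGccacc
Kcnc2: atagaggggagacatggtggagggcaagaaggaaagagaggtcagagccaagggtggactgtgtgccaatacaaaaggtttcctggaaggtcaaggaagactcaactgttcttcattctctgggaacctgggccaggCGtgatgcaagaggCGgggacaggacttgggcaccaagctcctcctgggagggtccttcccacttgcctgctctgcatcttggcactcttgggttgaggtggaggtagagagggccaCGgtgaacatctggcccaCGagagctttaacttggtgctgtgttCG
Lef1: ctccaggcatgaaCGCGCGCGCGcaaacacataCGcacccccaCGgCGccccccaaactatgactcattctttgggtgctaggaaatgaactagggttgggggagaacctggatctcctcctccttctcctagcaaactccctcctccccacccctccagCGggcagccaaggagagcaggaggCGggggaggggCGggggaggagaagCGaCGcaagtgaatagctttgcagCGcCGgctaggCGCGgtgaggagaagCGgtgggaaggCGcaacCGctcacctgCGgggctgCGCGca

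At the region of Kcnab2 close to the start site, annotated with a CpG island, 1 PAE, 2 PF and 1 CON animals had a peak. At Kcnc2, the region over exon 1 had a peak in 19 of the 20 PAE and PF animals. At Lef1, the region over exon 1 had a peak in 5 PAE, 5 PF and 2 CON animals.

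Groups of neighbouring regions were also searched for, by counting regions with an unadjusted p under 0.05 in a single direction over 250 kb. The places below were chosen after their values were seen and carry no test of their own. The densest stretch higher in PAE lay on chromosome 17 (57730326 to 57959378), where 37 of 45 tested regions were higher in PAE and 17 of them had an unadjusted p under 0.05. Its median log2 difference was 0.42, and 36 regions were higher after quantile normalization. The mean log2 height of an animal over the 45 regions ran from −0.50 to 0.21 (median −0.18) in PAE, from −0.88 to 0.12 (median −0.33) in PF and from −0.41 to 0.34 (median −0.02) in CON animals. PF replicates 7, 6, 5 and 1, at −0.88, −0.76, −0.70 and −0.67, lay below all PAE and CON animals, while the other 6 PF animals lay among them. PF replicates 5, 6 and 7 were on lane 5 and had a high share of peaks on chromosome X. PAE replicate 1, on the same lane and with a high share too, was at 0.16, and PF replicate 8, with a high share but on lane 7, was at −0.28. Without the 5 libraries with that share, the medians were −0.31 in PAE and −0.24 in PF animals, in the opposite order, and the means were −0.17 and −0.25. The part of lane and of the sex of the animals in this stretch was not tested.

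**Figure D2:**
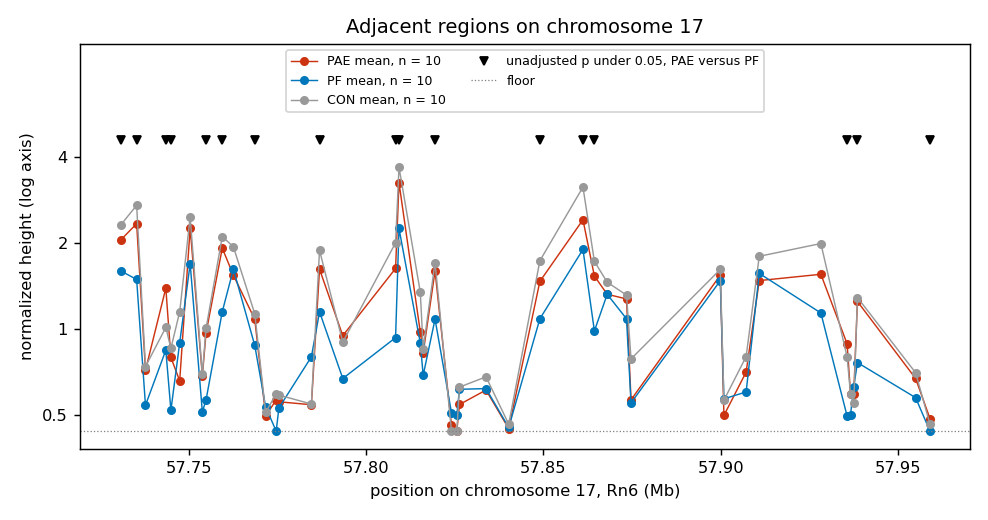
Mean normalized height (log axis, per 1000000 filtered fragments) in 10 PAE, 10 PF and 10 CON animals at 45 adjacent regions of chromosome 17, by position on Rn6 in Mb, with triangles at the 17 regions with an unadjusted p under 0.05 between PAE and PF and a dotted line at the floor of 0.438. PAE means lie above PF means at most of these regions, a stretch chosen after its values were seen.

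The densest stretch lower in PAE lay on chromosome 9 (8645339 to 8835077), with 26 of 30 tested regions lower in PAE and 9 at an unadjusted p under 0.05. The mean log2 height over these regions ran from −0.93 to −0.09 (median −0.80) in PAE, from −0.84 to 0.61 (median −0.11) in PF and from −0.95 to −0.13 (median −0.83) in CON animals. The animals fell into a low set, between −0.95 and −0.68, and a high set, between −0.30 and 0.61. In the high set were 6 PF, 2 PAE and 2 CON animals. A peak height counts fragments, so animals that differ in DNA sequence or copy number there and animals that differ in methylation cannot be told apart. Animals of the same dam did not always fall together: of dam E3, PAE replicate 3 stood at −0.09 and PAE replicate 8 at −0.93. The highest was PF replicate 6, at 0.61, while PF replicate 1, of the same dam, was at −0.84. Without the libraries with a high chromosome X share, the medians were −0.80 in PAE and −0.40 in PF animals.

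Counted per animal, PAE libraries had 103898 to 189772 autosomal peaks (mean 135828 ± 26494, SD, n = 10) and PF libraries 113946 to 184391 (143998 ± 19297, SD, n = 10). The groups overlapped almost fully, since PAE replicate 2 had the most peaks and 3 PAE animals had fewer than any PF animal. PAE minus PF was −8169 peaks (two-sided permutation p = 0.445). Within lanes, the difference was 7997 on lane 5, −9791 on lane 6 and −33463 on lane 8, so its sign was not the same in all 3. It was −12359 without the 5 libraries with a high chromosome X share and it ran from −14163 without PAE replicate 2 to −3681 without PF replicate 4. In the libraries labelled male it was −20223 (exact permutation p = 0.127) and in those labelled female 3884 (exact permutation p = 0.810), and the difference between the labelled sexes had a permutation p of 0.258. The positive value leaned on PAE replicate 2, with 189772 peaks against at most 153999 in the other PAE libraries labelled female.

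**Figure D3:**
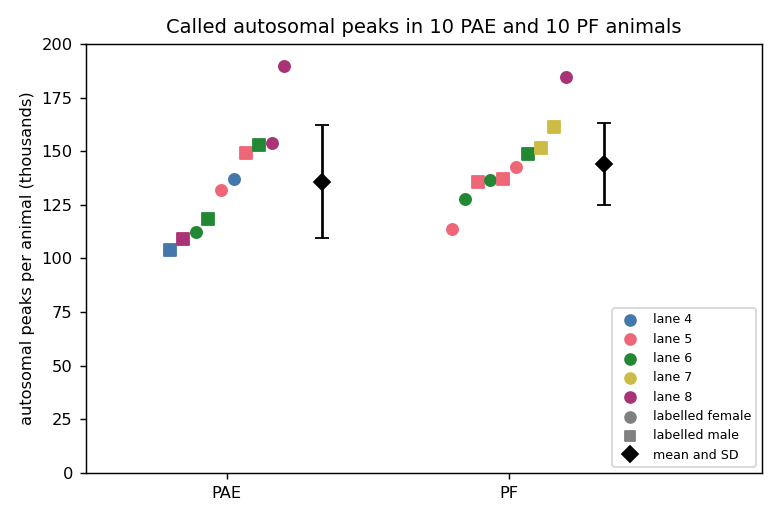
Autosomal peaks per animal for 10 PAE and 10 PF animals, with a point per animal, colour for the sequencing lane, circles for labelled female and squares for labelled male, and a diamond with bars for the mean and SD. PAE animals run from 103898 to 189772 peaks and PF animals from 113946 to 184391, and the library with the most peaks of each group was on lane 8.

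The peaks covered 39.4 to 81.3 Mb (mean 53.0 ± 12.5, SD) in PAE and 45.0 to 77.9 Mb (56.9 ± 9.02) in PF animals, a difference of −3.94 Mb (permutation p = 0.439). The median peak was 333 bp long in PAE and 338 bp in PF animals on average, and the median peak height was 0.798 and 0.814 per 1000000 filtered fragments. Over the 14428 regions with a peak in all 20 libraries, the mean log2 height was 0.44 ± 0.153 (SD) in PAE and 0.49 ± 0.131 in PF animals. These groups too overlapped, from 0.27 to 0.78 in PAE and from 0.36 to 0.78 in PF animals. The difference was −0.05 (permutation p = 0.448), and it was 0.05 on lane 5, −0.06 on lane 6 and −0.18 on lane 8. It was −0.0871 without PAE replicate 2 and −0.0179 without PF replicate 4. With labelled sex and lane in a linear model it was −0.04 (standard error 0.0514).

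PAE and PF animals differed by similar amounts on all autosomes. Over the regions with a peak in all 20 libraries, the mean log2 height was lower in PAE than in PF animals on each of the 20 autosomes, from −0.03 on chromosome 19 to −0.07 on chromosome 10, with a smallest permutation p of 0.288 and 0.594 after adjustment over the autosomes. These tests were of the level on each autosome, which carries the difference shared by all, so they could not show a single autosome standing apart. Each of these differences was within 0.02 of that over all autosomes together, and departures from it were not tested. The share of tested regions lower in PAE ran from 54.6% on chromosome 2 to 57.1% on chromosome 20, and from 49.9% on chromosome 11 to 53.0% on chromosome 10 after quantile normalization. Chromosome 20 had the highest share of regions with an unadjusted p under 0.05, 5.33%, and chromosome 6 the lowest, 4.35%. In windows of 1000000 bp with at least 50 tested regions, 1966 of 2339 had most of their regions lower in PAE, and 1338 after quantile normalization.

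How often a region was called, its length and its height each went with the share lower in PAE, with all 20 libraries and before other scalings were applied. Of the 280405 regions with any fitted difference, whatever its p, 55.8% were lower in PAE. The share ran from 54.9% for regions with a peak in 3 to 5 libraries through 55.6%, 56.7% and 56.9% to 58.3% for those with a peak in all 20. With quantile normalization the order was the opposite, from 52.5% to 48.0%, and without PF replicate 4 it ran only between 50.5% and 51.6%. Scalings that level the libraries take out a shared difference by construction, while the fit without PF replicate 4 does not. The longest quartile of regions, 724 to 4199 bp, had 58.7% lower and the shortest, 234 to 416 bp, 53.1%, against 52.3% and 50.8% after quantile normalization. Without PF replicate 4 they had 51.6% and 50.1%. By mean height, the lowest quartile had 53.2% lower and the highest 57.2%, against 50.3% and 50.8% after quantile normalization and 51.1% and 51.3% without PF replicate 4.

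**Figure D4:**
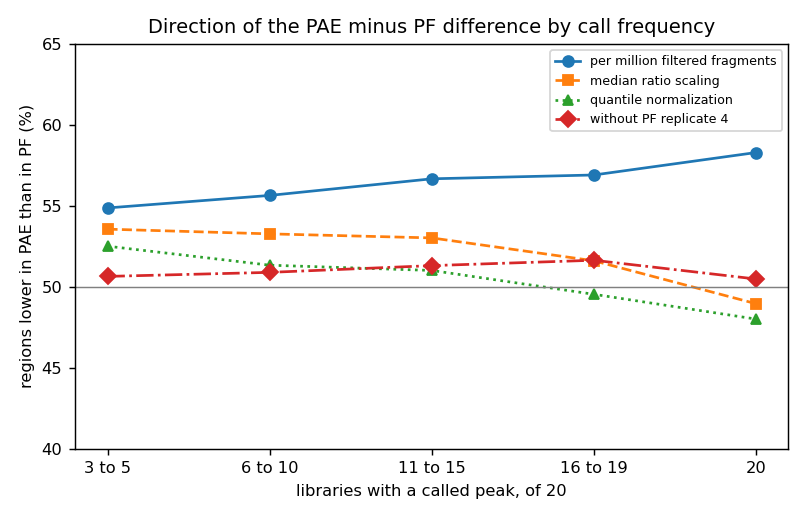
Share of regions lower in PAE than in PF animals (percent, axis from 40 to 65) by the number of the 20 libraries with a peak, for heights per 1000000 filtered fragments, median ratio scaling, quantile normalization and the fit without PF replicate 4. The first runs from 54.9% to 58.3% and quantile normalization from 52.5% to 48.0%, with a line at 50%.

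The share of regions with an unadjusted p under 0.05 was 5.10% for regions with a peak in 3 to 5 libraries, 4.20% for those in 6 to 10, 4.80% and 4.76% for those in 11 to 15 and 16 to 19, and 2.25% for those with a peak in all 20. Fitted on their own, with a prior variance from these regions alone, 684 regions of that last class had an unadjusted p under 0.05 (478 lower and 206 higher in PAE), so the low share rested on the prior taken from all regions. In the fit of all regions, 893 of the class had an unadjusted p under 0.05 for lane, in an F test over all lanes, against 324 for the single difference of PAE and PF. A median standard error of 0.205 on the log2 scale applied there, against 0.146 in the class of 3 to 5 libraries, where most animals sit at the same floor.

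Within the labelled sexes, 0 regions were called in 10 libraries labelled female and 0 in 10 labelled male, with 8393 (2.99%) and 9376 (3.34%) regions at an unadjusted p under 0.05 in limma. The test of the difference between the labelled sexes called 0 regions, with 9486 (3.38%) unadjusted. Within a labelled sex and with the lane term, a library on a lane without the other group does not inform the difference. So 4 PAE and 5 PF libraries labelled female and 3 PAE and 3 PF labelled male carried the tests within the labelled sexes. The test of the difference between the labelled sexes was fitted on all 20 libraries, with lane terms common to both. Since 11 libraries went against their label, these counts are not counts by sex. They also rested on single animals. In the libraries labelled male, where 3 residual degrees of freedom were then left, leaving out PAE replicate 9 called 9275 regions and leaving out PF replicate 9 called 10594, while leaving out PF replicate 4 called 30 in those labelled female and leaving out PAE replicate 3 called 1. Of the 9275 regions 8722 were lower in PAE, while of the 10594 regions 9933 were higher, so these fits went opposite ways. Without the lane term 23 regions were called in the libraries labelled male. The difference between the labelled sexes gave 1 region without the lane term or without PAE replicate 6, on chromosome 13 from 108829433 to 108829890, and 1 without PF replicate 7, on the same chromosome from 109583197 to 109583468.

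By correlation of their deviations from the group mean, littermates were no more alike than other animals of their group. Over the regions with a peak in all 20 libraries, deviations from the group mean in the 10 pairs of animals of the same dam had correlations of −0.15 to −0.02 (median −0.12), against a median of −0.11 in the 80 pairs of animals from different dams of a group. These correlations are across regions, which are not independent replicates. Deviations from a mean of 10 animals correlate negatively by construction, so only the comparison between kinds of pairs can be read. The measure did not set lanes apart either, with a median of −0.107 in pairs of the same lane and −0.112 in others. It may therefore miss a shared dam. With dam as a block, 0 regions were called and 14968 had an unadjusted p under 0.05.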

How the data were processed

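The deposited peak lists hold, per the file headers, MACS2 2.1.4 calls of each library without a control at a q of 0.05. The authors aligned reads to Rn6, removed duplicates and reads with a mapping quality under 10, and deposited the pileup at each summit, not scaled for depth, and its −log10 q value. Here overlapping autosomal peaks of the 20 PAE and PF libraries were merged, regions with a peak in at least 3 libraries kept, and the highest pileup per library divided by filtered fragments and raised to a floor of 0.438. Log2 heights were fitted in limma with a trended prior and terms for group, labelled sex and lane, p values adjusted by Benjamini and Hochberg, and calls tested by Fisher's exact test. Single values per animal were tested by 100000 permutations of the group labels, or exactly within a labelled sex.

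Regions were named by rule: up to 5 by smallest p in each direction, the same among regions with a peak in all 20 libraries, up to 5 each way with a peak in at least 9 animals of a group and at most 1 of the other, 3 per gene list, and the smallest p in each gene body. Members and lists were chosen with earlier results of these data known. Gene names come from the study's tables, since no Rn6 annotation was at hand.

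Dams lie within a group, so they cannot pair PAE with PF. Dam as a replicate block, with an estimated correlation of −0.0663 over 20000 drawn regions, was an alternative, beside other floors, filters, scalings and terms. The fits without libraries of doubtful sex label or most peaks, and with the chromosome X share, were added after seeing the data. Sex chromosomes and scaffolds were left out of the tests. R 4.3.3, limma 3.58.1, Python 3.11.15, numpy 2.4.6, pandas 2.3.3, scipy 1.17.1 and matplotlib 3.10.9 were used.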

Additional observations from a re-analysis of the deposited data

Results flagged for a closer look

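Of 42 groups of 10 animals examined, 5 held an animal whose gap to its nearest neighbour exceeded 0.466 of the group's range, and chance alone gives this in about 1 in 20 groups. PAE replicate 2 had 81.3 Mb covered by peaks, against at most 60.9 Mb in the other PAE animals. PF replicate 4 stood highest of the PF animals in the other 4 groups. Its mean log2 height over regions with a peak in all 20 libraries was 0.78, its height on chromosome 9 at 101709010 was 4.38, and its heights at the Cdh13 regions were 2.23 (at 51285986) and 1.51 (at 51681953). Both libraries were on lane 8, and the part of the lane in these values was not tested.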

How the results depend on the processing

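The count of 0 regions at the FDR became 566 with lane removed before the fit, 2 among regions with a peak in all 20 libraries, and 1 each with own floors, with peaks in at least 5 libraries, and without the 11 libraries against their labelled sex (no lane term). The 12951 regions at an unadjusted p under 0.05 became 2625 with Fisher's exact test, 44033 with lane removed and 684 (478 lower in PAE) among the 14428 regions in all 20. Of those 14428, 8411 were lower in PAE at any p. With dam as a block, 0 were called and 14968 had an unadjusted p under 0.05. The mean log2 height over regions in all 20 (−0.05) was 0.0030 with median ratio scaling and 0.0036 with quantile normalization, which level the libraries and so fix it near 0 and do not test it, and 0.0089 on lanes 5, 6 and 8 pooled, which hold the groups unevenly. Without the lane term, 23 regions were called in libraries labelled male and 1 for the difference between labelled sexes. Leaving out 1 animal gave 0 to 30 calls in libraries labelled female, 0 to 10594 in those labelled male and 0 to 1 for their difference. Of 70 named regions, 2 turned when 1 animal was left out and 13 in another of the 20 alternatives. Those were, without the 11 libraries, chromosome 2 at 161033348 (−0.10), chromosome 1 at 11930123 (−0.39), Kcnc2 (0.0221), Grm8 (0.19), Per3 (−0.12), Gpc5 (0.0711) and Trpm3 (0.0638); without the lane term, Cacna2d2 (0.0871), Grm8 (0.0493) and Per3 (−0.12); with 50% coverage, chromosome 19 at 53229573 (0.0415) and Cacna1c (0.13). Kcnab2 was −0.0915 without the 5 libraries with a high chromosome X share, Grip1 −0.00420 with all 30 libraries, Wwtr1 −0.00322 with the X share, and Cacna2d2 0.00049 with quantile normalization and 0.0219 without the 2 libraries with most peaks. Leaving out 1 animal, Cacna2d2 ran from −0.0720 (PAE replicate 9) to 0.0270 (PF replicate 4) and Wwtr1 from −0.0604 (PAE replicate 9) to 0.19 (PF replicate 1). Other small differences also moved by over 1.5 times without 1 animal: Kcnc2 ran from −0.33 to −0.0916, Kcnab2 from 0.0361 to 0.60, Cacna1g from 0.0620 to 0.20, Cacna1c from −0.52 to −0.0778, Grip1 from 0.0923 to 0.21, Grm8 from −0.21 to −0.000607, Drd4 from −0.41 to −0.0841, Wwc2 from 0.00877 to 0.22, and the body regions of Clstn2 from 0.0637 to 0.16 and of Magi1 from −0.28 to −0.12. All alternatives were run. Lanes 4 and 7 each held a single group, so lane and group cannot be told apart there, and the sex chromosomes of 11 libraries put their labels in doubt.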
